A study of Homo sapiens with 6 samples.

Results

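Natural antisense transcripts are long non-coding RNAs (lncRNAs) copied from the strand opposite a known gene, and 230 genes named as such are described here in THP-1 cells, an established human monocytic leukaemia line. The members are the lncRNA rows of the count table whose symbol ends in AS and a digit and whose counts summed to 300 or more over the 6 libraries, with 1 further row left out by name. They make up 230 of 1124 such antisense rows, of 9115 lncRNA genes and of 25336 genes in all. The sum over all libraries chose the members, so their levels are a description. The groups were not compared in the choice, but a member near the threshold can pass it through the group where it is high. PPP1R26-AS1 (310 counts) and IDI2-AS1 (350 counts), described below, lie near it. Just inside the threshold lay PRC1-AS1 (301 counts), SDCBP2-AS1 (302) and MELTF-AS1 (303), and just outside it ZNF790-AS1 (299), CIRBP-AS1 (297) and PPP1R12A-AS1 (292).

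The libraries fall into pristimerin (n = 3) and control (n = 3). Pristimerin is a quinone-methide triterpenoid of plant origin that reacts with thiol groups. Neither the dose nor the exposure time is labelled, and no library is labelled as treated with erastin, the ferroptosis inducer in the series title. All libraries come from this 1 cell line, and the labels call them biosample replicates without naming separate cultures. P-values therefore rest on the spread of these libraries alone, which could be technical. Library totals ran from 19057219 to 30568593 counts. Replicate 2 of each group stood apart on the second principal component, which held 13.5% of the variance. All 10 THP-1 markers were listed, with summed levels of 1184, 1175 and 1179 FPKM (counts scaled to gene length and library total) in pristimerin and 1147, 1194 and 1088 FPKM in control libraries. None of 3 T cell markers was listed, B cell markers summed to 1.88 to 2.15 FPKM in pristimerin and 1.72 to 1.96 FPKM in control libraries, and summed markers of erythroid, epithelial and fibroblast cells were at most 0.0735 FPKM in any library.

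An antisense RNA is named after the gene on the other strand, its sense gene, whatever it does. By the deposited coordinates, 1 member lies on the same strand as its named gene, and for 3 the named gene was not analysed here. Some act where they are made, on the chromatin or the promoter of the neighbouring gene. Others pair with their partner's RNA or leave the locus and bind proteins or microRNAs, and many have no known role. A large group starts beside or inside its partner's promoter and is copied outward from the same open chromatin.

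OIP5-AS1, known as cyrano in vertebrates, carries a nearly complete complement to the microRNA miR-7, which in mouse tissues leads to loss of that microRNA. The site is shown because OIP5-AS1 held 14.3% of all counts of the members and rose. Capitals mark bases 2 to 8 of the microRNA, its seed, and the letters of the RNA that pair with the seed. The microRNA is from RefSeq (GRCh38.p14), and the site was found in the GENCODE release 29 transcript at chr15:41300574-41300599, plus strand, positions 2869 to 2894 of 8829.
hsa-miR-7-5p: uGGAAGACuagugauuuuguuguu
OIP5-AS1 site: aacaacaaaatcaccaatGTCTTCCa
Outside the seed, 15 of 16 bases of the microRNA pair with this site after an offset of 2 bases. The transcript has 3 matches to the seed, and the other 2 pair with 7 and 5 of the 16 bases. Levels of miR-7 itself were not analysed here.

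For 16 members the sense gene starts on the opposite strand without overlapping, within 1000 bases, so that both are copied outward from a shared stretch of DNA. RTCA-AS1 and TPT1-AS1 are shown as examples with their RefSeq promoter windows (GRCh38.p14, 250 bases before to 50 after the RefSeq start, written along the antisense RNA's strand). Capitals mark the bases between the starts of the antisense RNA and of its partner. RTCA-AS1 lies on the minus strand at chr1:100266125-100266424, and TPT1-AS1 on the plus strand at chr13:45341095-45341394.
RTCA-AS1: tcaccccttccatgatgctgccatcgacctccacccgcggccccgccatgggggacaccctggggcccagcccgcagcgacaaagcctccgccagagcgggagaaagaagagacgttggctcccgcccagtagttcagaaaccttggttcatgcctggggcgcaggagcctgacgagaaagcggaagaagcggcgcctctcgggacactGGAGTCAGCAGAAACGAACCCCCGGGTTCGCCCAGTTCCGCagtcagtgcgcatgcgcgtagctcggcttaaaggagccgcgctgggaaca
TPT1-AS1: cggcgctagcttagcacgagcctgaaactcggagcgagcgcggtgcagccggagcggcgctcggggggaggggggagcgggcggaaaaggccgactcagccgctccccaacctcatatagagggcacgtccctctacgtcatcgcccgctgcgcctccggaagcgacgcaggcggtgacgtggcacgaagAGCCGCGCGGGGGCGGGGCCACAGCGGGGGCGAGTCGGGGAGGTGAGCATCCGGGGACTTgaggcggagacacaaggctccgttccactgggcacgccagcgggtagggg
The capitals span 41 bases for RTCA-AS1 and 60 bases for TPT1-AS1. By the starts in the deposited table the distances are 34 and 61 bases.

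PSMB8-AS1 had the largest increase of all members, and its start lies among genes of antigen presentation that interferon induces. Its promoter window (RefSeq, GRCh38.p14, plus strand, chr6:32843836-32844135) was searched on both strands for the core of the interferon-stimulated response element, a GAAA and another GAAA with any 2 bases between, and the capitals mark the match, which begins 44 bases before the RefSeq start.
PSMB8-AS1: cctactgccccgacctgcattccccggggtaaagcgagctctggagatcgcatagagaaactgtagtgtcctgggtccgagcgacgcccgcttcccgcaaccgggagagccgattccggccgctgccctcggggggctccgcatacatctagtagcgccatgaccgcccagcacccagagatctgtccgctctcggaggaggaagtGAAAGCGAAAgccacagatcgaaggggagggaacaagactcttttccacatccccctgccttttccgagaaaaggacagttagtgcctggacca
The same letters occur in 3.65% of 27305 RefSeq promoter windows and in 7 of the 180 members with a window. A match describes the letters only.

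Most members were rare RNAs. Their mean level over the 6 libraries had a median of 1.25 FPKM and ran from 0.163 to 37.8 FPKM. In all, 9 members reached 10 FPKM and 98 were below 1 FPKM. The sense genes had a median of 6.05 FPKM, and in 65 of 227 pairs the antisense RNA was at the higher level. The sense gene of the median pair was at 3.53 times the level of its member. ST3GAL3-AS1, within the sialyltransferase gene ST3GAL3, was highest at 37.8 FPKM, above its sense gene at 5.09 FPKM. FGD5-AS1 followed at 30.3 FPKM, then OIP5-AS1 (16.5 FPKM), MAP3K5-AS2 (15.8 FPKM), TMPO-AS1 (13.8 FPKM), BAZ2B-AS1 (13.7 FPKM), GATA2-AS1 (13.0 FPKM) and NFYC-AS1 (12.9 FPKM). The sense gene of OIP5-AS1, the centromere factor OIP5, stood at 0.487 FPKM, and the sense gene of BAZ2B-AS1, the bromodomain gene BAZ2B, at 3.02 FPKM.

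The counting step limits values of overlapping pairs. The library protocol keeps the strand, but whether counting used it is not stated. If it did not, reads of exons shared with a gene on the other strand would be mixed, and 69 of the 90 members called below share exon bases with such a gene. In bulk libraries, fewer cells making an RNA and less of it per cell cannot be told apart.

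More of these RNAs fell than rose. All 230 members passed the filter on low counts. In edgeR's quasi-likelihood test with a Benjamini-Hochberg adjusted p under 0.05 over 15305 genes, 17 members were higher in pristimerin and 73 were lower, while 140 were not called. These are 7.39% and 31.7% of the members, where 14.5% of all genes tested were called higher and 15.1% lower. The median log2 fold change (pristimerin over control, on the CPM scale, counts relative to the TMM-scaled library total) was -0.19 for members, -0.01 for all genes and -0.19 for all 2795 lncRNA genes tested. The members' summed counts had a median of 859, against 2992 for all genes tested. Of all genes with 300 counts or more, 17.8% were higher and 15.7% lower. Of 840 other lncRNA genes with 300 counts or more, 8.33% were higher and 23.5% lower. Of 3514 protein-coding genes with summed counts between 342 and 3271, the 10th and 90th percentile of the members, 8.11% were higher and 22.5% lower, with a median of -0.09. After cyclic loess, an alternative added once the data had been seen, 24 members were higher and 45 lower, so that increases made up 34.8% of the members' calls, against 18.9% with TMM.

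**Figure D1:**
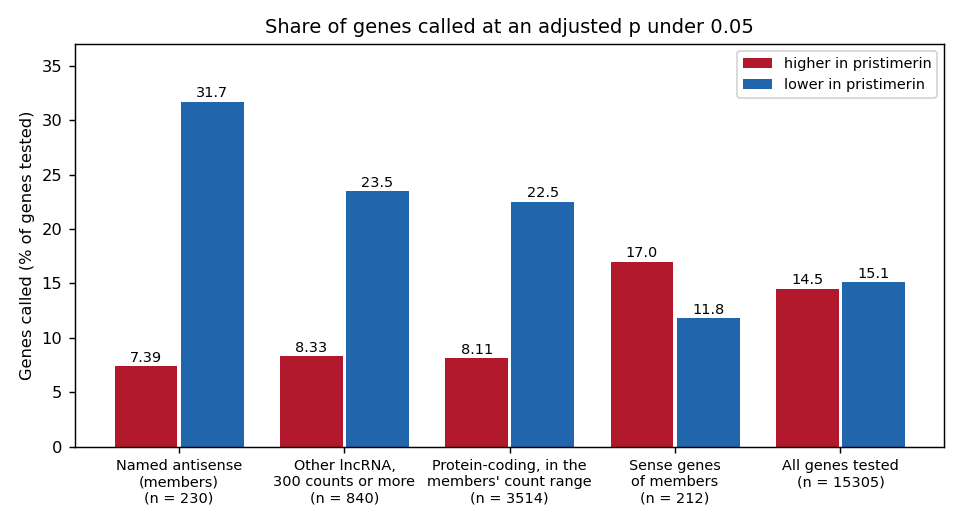
Bars give the percentage of genes called higher (red) or lower (blue) in pristimerin than in control libraries at an adjusted p under 0.05, for the antisense members and 4 comparison sets, with the number tested under each. The members have the tallest blue bar (31.7%), against 23.5% for other lncRNA genes of 300 counts or more and 22.5% for protein-coding genes in the same count range.

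Large changes were few, as among all genes tested. Of the 230 members, 3 rose and 6 fell at least 2-fold with a call. These shares are near the 0.908% and 2.55% of all genes tested. The CPM values of the groups did not overlap in 24 members above and 95 members below control, against 21.0% and 22.3% of all genes tested. The 17 increases had a median log2 fold change of 0.51 and the 73 decreases one of -0.58. Summed over all members, the level relative to the plain library total was 2511, 2617 and 2478 CPM in pristimerin and 2650, 2782 and 2664 CPM in control libraries, so every pristimerin library was below every control library. OIP5-AS1 and FGD5-AS1 alone held 21.3% of the members' counts, and both rose. Without them the sums were 1898, 1932 and 1878 CPM in pristimerin and 2194, 2285 and 2205 CPM in control libraries, again with no overlap. On library totals the median log2 fold change of all genes tested was itself -0.08. How much of either separation goes with that shift was not tested.

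OIP5-AS1 (ENSG00000247556, hg38 chromosome 15, 41283958 to 41322392, plus strand) is the site-bearing RNA shown above. It measured 428, 490 and 416 CPM in pristimerin and 287, 314 and 288 CPM in control libraries. All pristimerin libraries lay above all control libraries. Here and below, a value in parentheses with an SE is a log2 fold change unless a ratio is named. The means were 445 ± 39.9 CPM in pristimerin and 296 ± 15.3 CPM in control libraries (SD, n = 3 each), and the log2 fold change was 0.58 (SE 0.07, edgeR adjusted p = 7.1e-06). OIP5 itself, on the opposite strand, had 90 counts in total and was not called (-0.87, SE 0.36, edgeR adjusted p = 0.079), although limma on log2(FPKM + 1) called it lower. FGD5-AS1 (ENSG00000225733, chromosome 3, 14920347 to 14948424, minus strand) measured 197, 213 and 203 CPM in pristimerin and 157, 168 and 163 CPM in control libraries. Its groups did not overlap either, and its log2 fold change was 0.33 (SE 0.06, edgeR adjusted p = 0.00059). FGD5 was not analysed here.

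Of the other 6 most abundant members, 3 fell and 3 were not called. BAZ2B-AS1 measured 30.2, 36.8 and 32.0 CPM in pristimerin and 53.6, 51.2 and 54.3 CPM in control libraries, without overlap (-0.68, SE 0.08, edgeR adjusted p = 8.3e-06). Its partner BAZ2B was not called (0.15, SE 0.08). MAP3K5-AS2, within the gene of the stress kinase ASK1, had a log2 fold change of -0.45 (SE 0.09, edgeR adjusted p = 0.0017). GATA2-AS1 fell by 0.33 on the log2 scale (SE 0.09, edgeR adjusted p = 0.0081), and GATA2, a transcription factor of early blood cells, fell by 0.31. Without control replicate 3, GATA2-AS1 was no longer called (-0.29). GATA2 lost its call without control replicate 1 (-0.18) and without each pristimerin library in turn (-0.32 to -0.28). NFYC-AS1, ST3GAL3-AS1 (0.04, SE 0.09) and TMPO-AS1 (-0.02, SE 0.08) were not called, and the signs of both these values changed with the scaling or the libraries used. ST3GAL3 (0.26) and TMPO (0.27), which codes for a nuclear lamina protein, were called higher.

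The members that rose are grouped below by what their neighbouring genes are known for, a grouping made after their values were seen. A first group lies beside 3 genes of sterol and isoprenoid synthesis or transport. STARD4 carries cholesterol between membranes, IDI1 isomerises isopentenyl diphosphate and FDPS makes farnesyl diphosphate. STARD4-AS1 (ENSG00000246859, chromosome 5, 111510396 to 111739726, plus strand) measured 13.7, 13.1 and 13.2 CPM in pristimerin and 8.66, 8.70 and 9.14 CPM in control libraries. The libraries of a group differed little and the groups stood well apart (0.60, SE 0.10, edgeR adjusted p = 0.00018). STARD4 rose more, with 57.7 ± 8.88 CPM in pristimerin and 21.5 ± 1.63 CPM in control libraries (SD, n = 3 each, log2 fold change 1.42, SE 0.10). The ratio of antisense to sense therefore fell, by 0.82 on the log2 scale (SE 0.13, limma adjusted p = 0.0001).

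IDI2-AS1 (ENSG00000232656, chromosome 10, 1022618 to 1045425, plus strand) is named after IDI2, which had 4 counts and was not tested, but it also overlaps IDI1. It measured 3.03, 3.13 and 3.27 CPM in pristimerin and 1.72, 1.36 and 0.775 CPM in control libraries. All pristimerin values were above all control values, and control replicate 3 was the lowest (1.24, SE 0.22, edgeR adjusted p = 0.0005). IDI1 measured 189 ± 13.5 CPM in pristimerin and 70.1 ± 6.80 CPM in control libraries (SD, n = 3 each, 1.43, SE 0.08). The exons of IDI2-AS1 and IDI1 share 643 bases in GENCODE release 29. Whether reads of IDI1 entered the count of IDI2-AS1 was not tested.

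RUSC1-AS1 (ENSG00000225855, chromosome 1, 155316863 to 155324176, minus strand) lies across the adjoining ends of FDPS and of RUSC1, an adaptor gene. It measured 25.3, 23.2 and 23.2 CPM in pristimerin and 12.5, 16.4 and 13.9 CPM in control libraries, again without overlap (0.74, SE 0.10, edgeR adjusted p = 5.1e-05). FDPS (0.67, SE 0.06) and RUSC1 (0.37, SE 0.07) rose as well. Its exons share 693 bases with those of FDPS and 398 with those of RUSC1. Against RUSC1, the antisense RNA rose in ratio by 0.39 on the log2 scale (SE 0.12, limma adjusted p = 0.021).

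A pair of members beside interferon-response genes rose as well. PSMB8-AS1 (ENSG00000204261, chromosome 6, 32844078 to 32846500, plus strand) measured 8.66, 10.3 and 8.57 CPM in pristimerin and 3.60, 3.62 and 3.15 CPM in control libraries. Pristimerin replicate 2 was the highest, and the groups were far apart, a 2.66-fold difference (1.40, SE 0.13, edgeR adjusted p = 4e-07). It overlaps PSMB8 and TAP1 on the other strand and PSMB9 on its own strand, with 618, 456 and 174 shared exon bases. PSMB8 and PSMB9 are immunoproteasome subunits and TAP1 moves peptides into the endoplasmic reticulum. TAP1 had a log2 fold change of 0.51 (SE 0.07), PSMB9 of 0.60 (SE 0.08) and PSMB8 of 0.21 (SE 0.07, edgeR adjusted p = 0.027), all smaller than that of the antisense RNA. The call of PSMB8 was lost in 9 of 18 alternatives, among them those without control replicate 2 or 3 or pristimerin replicate 1 or 3 (0.17 to 0.24). The ratio of PSMB8-AS1 to PSMB8 rose by 1.19 on the log2 scale (SE 0.16, limma adjusted p = 1.3e-05).

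IRF1-AS1 (ENSG00000197536, chromosome 5, 132410636 to 132488702, plus strand) is opposite IRF1, a transcription factor of the interferon response. It measured 8.50, 7.45 and 7.89 CPM in pristimerin and 5.21, 4.39 and 5.68 CPM in control libraries, with no overlap (0.65, SE 0.12, edgeR adjusted p = 0.00082). IRF1 rose to 38.2 ± 1.20 CPM in pristimerin, against 19.7 ± 1.14 CPM in control libraries (SD, n = 3 each, 0.95, SE 0.08). Their ratio was not called (-0.31, SE 0.15, limma adjusted p = 0.17), and they share 1716 exon bases.

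**Figure D2:**
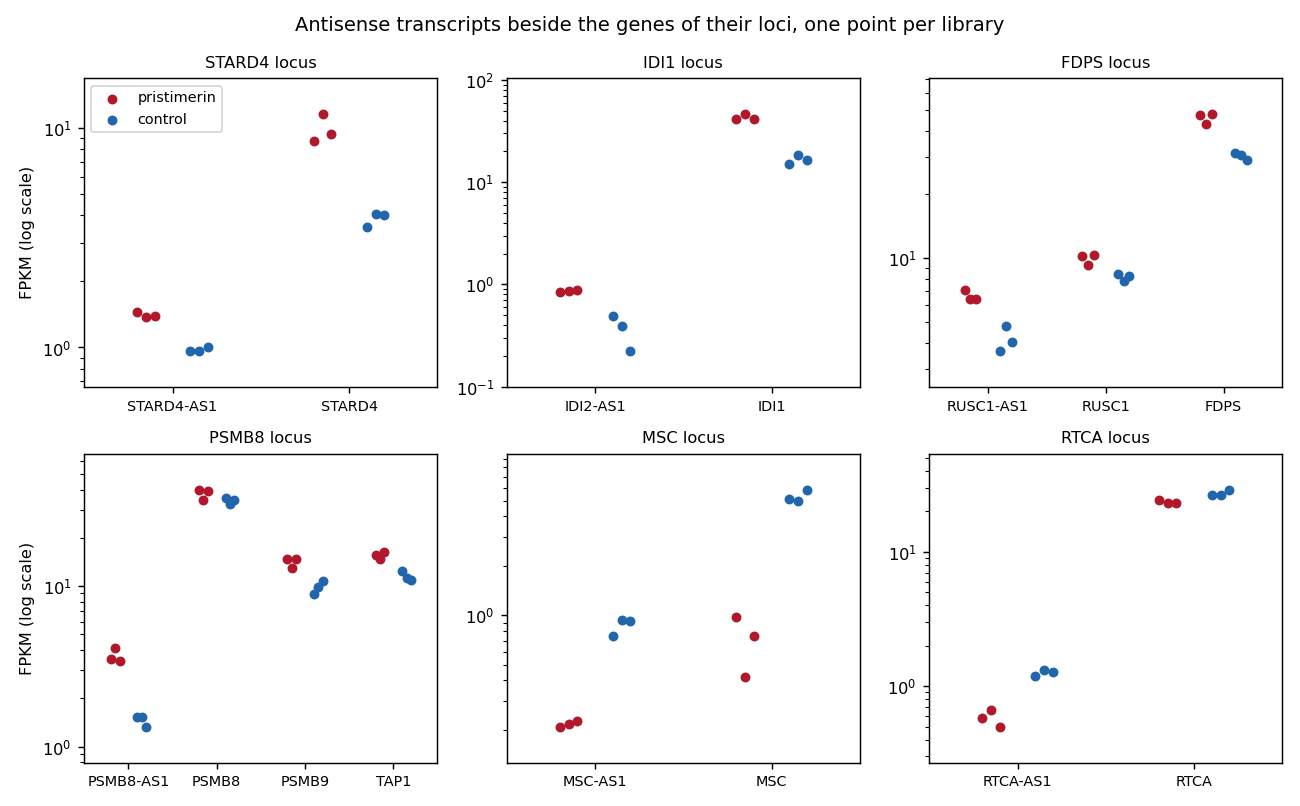
Points are single libraries of pristimerin (red) and control (blue), on a log axis of FPKM, for antisense RNAs and the genes of 6 loci. At the STARD4, IDI1, FDPS and PSMB8 loci every gene is higher in pristimerin on average, at the MSC locus both are lower, and at the RTCA locus the antisense RNA separates the groups more widely than RTCA.

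The remaining increases were at unrelated loci. PCED1B-AS1 (ENSG00000247774) measured 4.50, 3.01 and 3.65 CPM in pristimerin and 1.87, 1.64 and 1.34 CPM in control libraries, without overlap (1.19, SE 0.20, edgeR adjusted p = 0.00025). Its sense gene PCED1B had 75 counts and was not called (1.01, SE 0.42, edgeR adjusted p = 0.079). BMP8B-AS1 (ENSG00000285905) lies inside BMP8B, a ligand of the bone morphogenetic protein family, without a shared exon base. It measured 4.00 ± 0.229 CPM in pristimerin and 2.42 ± 0.324 CPM in control libraries (SD, n = 3 each, 0.74, SE 0.16, edgeR adjusted p = 0.0022), while BMP8B itself rose more (1.39, SE 0.06), so that the ratio fell by 0.67 (SE 0.19, limma adjusted p = 0.014). Smaller increases were called for MCM3AP-AS1 (0.51), CARD8-AS1 (0.44) and PIK3CD-AS1 (0.41), none of whose sense genes was called: MCM3AP acts in mRNA export, CARD8 is an inflammasome sensor and PIK3CD a kinase subunit of leukocytes. PSMA3-AS1 (0.27, SE 0.08, edgeR adjusted p = 0.023) had overlapping groups, and its call was lost in 9 of 18 alternatives, among them those without control replicate 1 or 3 or pristimerin replicate 2 or 3 (0.21 to 0.27). The 4 other members called higher had log2 fold changes of 0.24 to 0.35.

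**Figure D3:**
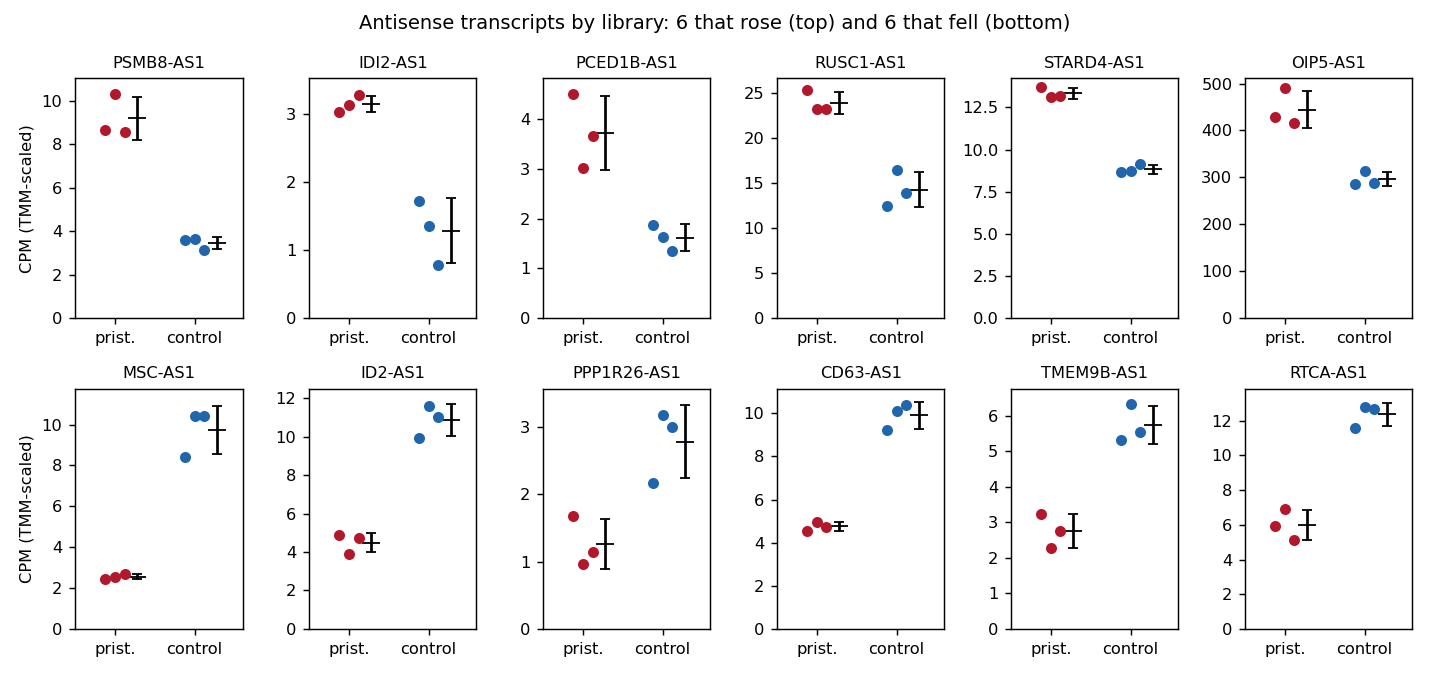
Each panel gives the CPM of 1 antisense RNA (TMM-scaled, axis from 0) in the 3 pristimerin libraries (red, left) and 3 control libraries (blue, right), with the mean and SD beside the points. The groups overlap in none of the 12 panels, and MSC-AS1 at the lower left falls to 2.55 CPM in pristimerin, against 9.72 CPM in control libraries.

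MSC-AS1 had the largest decrease. It spans the gene of musculin, MSC, a basic helix-loop-helix repressor (ENSG00000235531, chromosome 8, 71828167 to 72118393, plus strand). It measured 2.43, 2.55 and 2.67 CPM in pristimerin and 8.40, 10.4 and 10.4 CPM in control libraries. The pristimerin libraries were nearly equal and all far below control, a 3.81-fold difference (-1.93, SE 0.13, edgeR adjusted p = 1.4e-08). MSC had 2.03, 0.888 and 1.57 CPM in pristimerin and 10.2, 9.92 and 11.7 CPM in control libraries (-2.80, SE 0.19). Since MSC fell further, the antisense to sense ratio rose by 0.97 on the log2 scale (SE 0.22, limma adjusted p = 0.0032). Their exons share 414 bases.

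ID2-AS1 (ENSG00000235092, chromosome 2, 8666636 to 8681864, minus strand) starts inside ID2, which codes for an inhibitor of basic helix-loop-helix factors. It measured 4.86, 3.90 and 4.71 CPM in pristimerin and between 9.94 and 11.6 CPM in control libraries. The groups did not come near each other (-1.27, SE 0.12, edgeR adjusted p = 6.1e-07). ID2 fell by 0.39 on the log2 scale (SE 0.06), so that the ratio fell by 0.88 (SE 0.14, limma adjusted p = 0.00011). CD63-AS1 (ENSG00000258056, chromosome 12, 55729094 to 55730857, plus strand), beside the gene of a tetraspanin of late endosomes, measured 4.56, 4.98 and 4.71 CPM in pristimerin and 9.21, 10.1 and 10.4 CPM in control libraries. It too showed no overlap (-1.06, SE 0.11, edgeR adjusted p = 2.3e-06), and CD63 itself had a log2 fold change of -0.35 (SE 0.07), with a ratio change of -0.71 (SE 0.14, limma adjusted p = 0.00097).

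Some members fell beside genes that did not. TMEM9B-AS1 (ENSG00000254860, chromosome 11, 8964502 to 8977527, plus strand) measured 3.23, 2.28 and 2.76 CPM in pristimerin and 5.32, 6.34 and 5.53 CPM in control libraries. All pristimerin values were the lower ones (-1.05, SE 0.15, edgeR adjusted p = 8e-05), whereas TMEM9B, a protein of endosomal membranes, was called slightly higher (0.21, SE 0.08, edgeR adjusted p = 0.044). That small rise was not called in 10 of 18 alternatives, among them those without control replicate 1 or pristimerin replicate 2 or 3 (0.15 to 0.24). PPP1R26-AS1 (ENSG00000225361) rested on 310 counts and measured 1.67, 0.966 and 1.14 CPM in pristimerin and 2.16, 3.17 and 3.00 CPM in control libraries, with no overlap (-1.12, SE 0.23, edgeR adjusted p = 0.0017). Its sense gene PPP1R26, of a phosphatase regulator, was not called (0.12). Their ratio had the largest decrease of all member pairs (-1.28, SE 0.25, limma adjusted p = 0.00075), and they share no exon bases.

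Further decreases of members in the same range were spread over genes of many kinds. CCDC18-AS1 had the deepest counts among them, with 20.1, 21.1 and 20.7 CPM in pristimerin and 34.0, 39.9 and 37.2 CPM in control libraries. Each group was tight and they were clearly separate (-0.84, SE 0.09, edgeR adjusted p = 1.5e-06). BAALC-AS1 (-0.96), CLN8-AS1 (-0.93), KTN1-AS1 (-0.92), PRKAR1B-AS1 (-0.92), PDCD4-AS1 (-0.91), ERCC6L2-AS1 (-0.91), ZBED5-AS1 (-0.79), CD27-AS1 (-0.76) and ADIRF-AS1 (-0.75) fell with SEs of 0.09 to 0.21, each without overlap of the groups. Of their sense genes, PDCD4, a translation repressor, fell by 0.27 and CLN8, an endoplasmic reticulum membrane protein, fell by 0.30. The call of CLN8 was lost without control replicate 3 or pristimerin replicate 1 or 3 (-0.30 to -0.26). KTN1, a kinesin receptor, PRKAR1B, a regulatory subunit of protein kinase A, the helicase-like ERCC6L2 and ZBED5 were not called. The leukaemia-associated BAALC and the receptor gene CD27 had too few counts to be tested, and ADIRF was not analysed here.

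The members that start head to head with a partner, without overlap, fell or were not called. Of these 16, 7 were lower and 0 higher at the edgeR threshold used above, where 15.1% of all genes tested and 23.5% of other lncRNA genes with 300 counts or more were lower and 14.5% and 8.33% higher. Their median log2 fold change was -0.40, against 0.02 for their sense genes. Of all 230 members, 31.7% were lower and 7.39% higher, with a median of -0.19. A wider class holds the 69 members whose 5′ end lies within 1000 bases of their partner's on the opposite strand, overlapping or not. Of these 69, 20 were lower and 2 higher, with a median of -0.20, near that of all members. Differences between these classes were not tested. RTCA-AS1 (ENSG00000224616, chromosome 1, 100251528 to 100266182, minus strand) measured 5.93, 6.91 and 5.13 CPM in pristimerin and 11.6, 12.8 and 12.7 CPM in control libraries, without overlap (-1.04, SE 0.12, edgeR adjusted p = 4.5e-06). RTCA, an RNA 3′-phosphate cyclase, is copied the other way from the start region printed above. It measured 73.0 ± 1.81 CPM in pristimerin and 80.6 ± 5.05 CPM in control libraries (SD, n = 3 each) and was not called (-0.14, SE 0.07, edgeR adjusted p = 0.12), although 6 of 18 alternatives called it lower, among them library totals (-0.21) and upper-quartile scaling (-0.20). The ratio fell by 0.91 on the log2 scale (SE 0.14, limma adjusted p = 5e-05), and the genes share no exon bases.

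TPT1-AS1 (ENSG00000170919, chromosome 13, 45341345 to 45417975, plus strand) shares its start region with TPT1, an abundant growth-related protein. It measured 7.70, 7.69 and 8.90 CPM in pristimerin and 13.6, 12.5 and 14.2 CPM in control libraries. The groups were again separate (-0.73, SE 0.10, edgeR adjusted p = 6.3e-05). TPT1 fell less (-0.29, SE 0.06), and the ratio fell by 0.44 (SE 0.13, limma adjusted p = 0.016). In GENCODE release 29 their exons share 26 bases. The other 5 were ZNF561-AS1 (-0.76), ZNF528-AS1 (-0.75), SCAMP1-AS1 (-0.58), SRRM2-AS1 (-0.57) and EXOC3-AS1 (-0.51). EXOC3-AS1 lost its call without control replicate 3 (-0.38) or pristimerin replicate 3 (-0.43). Of their partners, the zinc-finger gene ZNF528 fell with its antisense RNA (-0.65, SE 0.12), while ZNF561, the vesicle protein gene SCAMP1, the splicing factor gene SRRM2 and the exocyst gene EXOC3 were not called. Of the 16 ratios, 7 were lower and 0 higher, where 14.1% of 1281 lncRNA to protein-coding pairs were called lower and 2.58% higher. Those 1281 pairs include the member pairs and were not matched to them in counts. Of the 211 member pairs of any layout, 58 ratios were lower and 14 higher.

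The members were also divided by their position on the partner. Where the 5′ ends overlap, 36 of 104 members were lower and 5 higher. Where the 3′ ends overlap, the counts were 14 lower and 5 higher of 50. Within the span of the sense gene 8 of 30 were lower and 4 higher, and around it 6 of 24 were lower and 2 higher. For comparison, 15.1% of all genes tested and 23.5% of other lncRNA genes with 300 counts or more were lower, and 14.5% and 8.33% higher. The remaining 6 members had another layout or no listed sense gene. Differences between these classes were not tested. Among members with no exon base found shared with any other listed gene, 19 of 50 were lower and 2 higher, and the median log2 fold change was -0.26. These 50 include MAP3K5-AS2 and SVIL-AS1, whose exons could not be compared with those of MAP3K5 and SVIL.

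Of 212 sense genes tested, 36 were higher (17.0%) and 25 lower (11.8%), near the 14.5% and 15.1% of all genes tested, and their median log2 fold change was 0.02. The 36 became 20 with library totals and the 25 became 41, so this balance moved with the scaling. Of the members that rose, 5 had a rising, 9 an uncalled and 0 a falling partner among those tested. Of the members that fell, 6 had a rising, 43 an uncalled and 16 a falling partner. Across 213 pairs the log2 fold changes of antisense and sense had a Pearson r of 0.40 and a Spearman rho of 0.24. The pairs share the same 6 libraries, and 201 members overlap a gene with at least 20% of their count, so this is a description only.

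Whether an antisense RNA and its partner differ in response was tested on their log2 ratio in limma, over 1281 pairs of an lncRNA with a protein-coding gene. Of 211 member pairs, 14 ratios were higher in pristimerin and 58 lower, where 2.58% of all such pairs were called higher and 14.1% lower. All such pairs include the member pairs, and no set matched in counts was compared. The median summed count was 859 for members and 196 for all lncRNA genes tested, so these shares may not be at equal depth. Among the 43 members that fell beside an uncalled partner, 31 had a lower ratio. Among the 9 that rose beside an uncalled partner, 5 had a higher ratio. Both sets were chosen by calls in these same libraries, so the direction of their ratios largely follows from the choice. Leaving out control replicate 3 or pristimerin replicate 1 left 9 higher ratios.

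**Figure D4:**
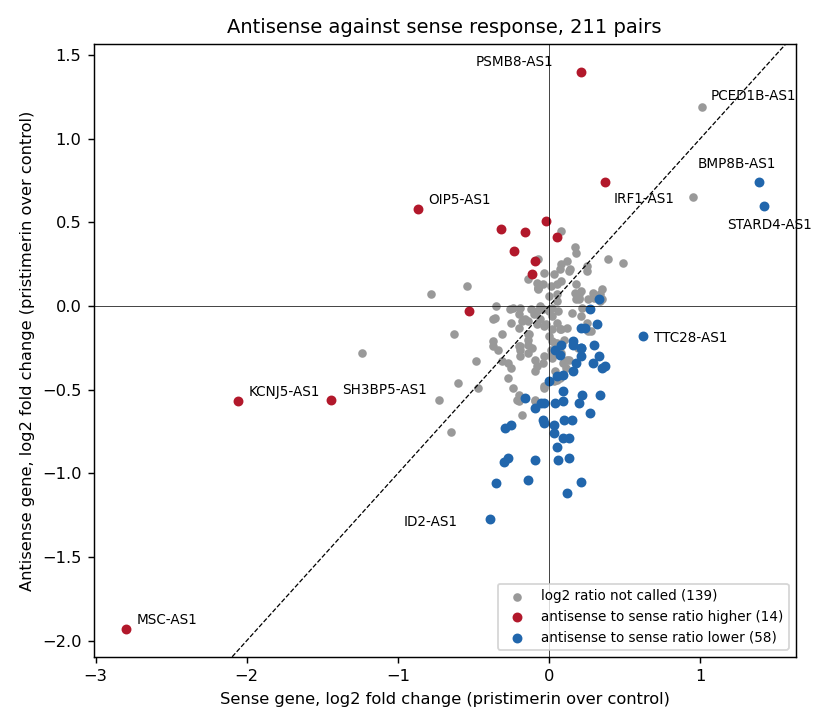
Each point is an antisense RNA and its sense gene, placed by the log2 fold change (pristimerin over control) of the sense gene on the x axis and of the antisense RNA on the y axis, with equal change on the dashed line. Red and blue mark the 14 higher and 58 lower ratios, and most blue points lie below 0 on the y axis near 0 on the x axis.

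The largest gain in ratio was that of OIP5-AS1 over OIP5 (1.53, SE 0.38, limma adjusted p = 0.0065). KCNJ5-AS1, within the gene of an inward-rectifier potassium channel, fell by 0.57 on the log2 scale, while KCNJ5 fell by 2.06 from only 101 counts, so the ratio rose (1.40, SE 0.40, limma adjusted p = 0.016). SH3BP5-AS1 (-0.56) and SH3BP5 (-1.44), of a Rab11 exchange factor, gave a ratio change of 0.90 (SE 0.21, limma adjusted p = 0.0033), and share 1975 exon bases. RNF213-AS1 (0.46, not called) and BASP1-AS1 (0.33, not called) gained in ratio on falling partners, by 0.78 (SE 0.19, limma adjusted p = 0.0064) and 0.58 (SE 0.16, limma adjusted p = 0.012). RNF213-AS1 was called higher in 5 of 18 alternatives, among them those without control replicate 2 (0.56) or pristimerin replicate 1 (0.59), and BASP1-AS1 in 3, among them the fit without control replicate 2 (0.40). The fall of BASP1 (-0.23) was not called without control replicate 1 or 3 or pristimerin replicate 1 or 3 (-0.22 to -0.17), whereas RNF213 (-0.32), a large ubiquitin ligase, kept its call in each of those fits. The opposite case was TTC28-AS1, which was not called (-0.18) beside a rising TTC28 (0.62, SE 0.09), with a ratio change of -0.80 (SE 0.13, limma adjusted p = 0.0001).

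Among the 6 members that fell beside a rising partner were SLC25A5-AS1, WARS2-AS1, NOP14-AS1, TMEM9B-AS1 and HMGN3-AS1. Their partners code for an ADP/ATP translocase, mitochondrial tryptophanyl-tRNA synthetase, a ribosome assembly factor, an endosomal protein and a nucleosome-binding protein. HMGN3-AS1 measured 4.56, 3.94 and 3.90 CPM in pristimerin and 5.80, 6.48 and 7.28 CPM in control libraries, without overlap (-0.64, SE 0.13, edgeR adjusted p = 0.0017). HMGN3 rose to between 112 and 126 CPM in pristimerin, against 94.1 to 106 CPM in control libraries (0.27, SE 0.07). The call of HMGN3-AS1 held without each library in turn, while HMGN3 lost its call in 3 of 18 alternatives. Calls of 3 of the others were less firm. SLC25A5-AS1 (-0.53) lost its call in 11 of 18 alternatives, among them all 6 that left out a library (-0.58 to -0.41), beside SLC25A5 at 0.34 (SE 0.06). WARS2-AS1 (-0.23) lost it in 10, also when any library but control replicate 2 was left out (-0.25 to -0.19). NOP14-AS1 (-0.30) lost it in 5 of 18 alternatives, among them those without control replicate 2 or pristimerin replicate 3 (-0.25 in both). NOP14 (0.21, SE 0.06) also lost its call in 5, each another normalization or a fit on FPKM (0.12 to 0.15). WARS2 (0.30) lost its call in 8, among them those without control replicate 2 or 3 or pristimerin replicate 2 (0.25 to 0.31).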

How the data were processed

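RNA-seq of THP-1 cells gave 3 pristimerin and 3 control libraries, grouped by their treatment labels. Per the labels' protocols, poly(A)-selected RNA was made into strand-specific dUTP libraries. The deposited counts are whole numbers per gene, unnormalised. The deposited FPKM values follow from these counts, a gene length and the library total. The submitters' processing notes name hg38. The aligner and counter are not named, and the strand setting is not given in the sources used here. Positions, exons and layouts were compared with GENCODE release 29, which lists 228 of the 230 members, 87 of them with the same start and end. Promoter windows and the microRNA are from RefSeq, and 180 members had a window.

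Counts were tested with edgeR 4.0.16 in R 4.3.3 (filterByExpr with a minimum count of 10 and a minimum total of 15, TMM factors of 0.9702 to 1.031, quasi-likelihood F test, group as the only term, Benjamini-Hochberg adjusted p under 0.05 over all 15305 genes kept, 10031 left out). CPM are TMM-scaled, and the SE is the absolute log2 fold change over the square root of F. Antisense to sense log2 ratios (prior count 0.5) were tested with limma 3.58.1 with a trend, over 1281 pairs. Alternatives were other scalings and filters, DESeq2 1.42.0, limma-voom, limma on log2(FPKM + 0.1) and log2(FPKM + 1), the replicate block and leaving out each library. Cyclic loess, both libraries numbered 2 left out and members without shared exon bases were added after seeing the data. Replicates differed by more than sampling noise (chi-square per degree of freedom 2.75 to 11.6), so none was a copy. The edgeR and ratio fits were first tested on simulated data.

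The members and lists were chosen with earlier results of these data known. Named are up to 30 called members by absolute log2 fold change, the 8 with the highest FPKM, members with a called ratio, their sense genes and the rows beside the threshold, and the text gives a selection of these. A member that the rule selects is not reported here. The neighbours IDI1, FDPS, TAP1, PSMB9, NREP and FZD6 were named after their values were seen. Python 3.11.15 with pandas 2.3.3 and matplotlib 3.10.9 served for tables and figures.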

Additional observations from a re-analysis of the deposited data

How the results depend on the processing

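The count of members called higher lay between 12 and 24 of 230 under all scalings, filters and tools tried, and that of members called lower between 45 (cyclic loess) and 85. Calls over all genes moved as well. In the main test 2216 genes were higher and 2313 lower, with cyclic loess 1883 and 1953, and with library totals 1389 and 3221. Leaving out each library in turn gave 13 to 19 higher and 53 to 63 lower. Among members with 1000 counts or more, 37 of 100 were lower, and the share of all genes at that depth was not counted. Of 22 members not shown to overlap their sense gene, 1 was higher and 9 lower. For 3 of these 22, with 1 higher and 2 lower, the sense gene was not analysed here, so overlap is unknown. Where no shared exon bases were found, 2 of 50 were higher and 19 lower. These smaller counts follow from fewer genes.

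The median log2 fold change of -0.19 was -0.06 with cyclic loess, -0.12 on log2(FPKM + 1), -0.17 in DESeq2, -0.18 with no low-count filter, -0.21 with a mean of at least 1 CPM, -0.24 on log2(FPKM + 0.1), -0.25 with upper-quartile scaling and -0.26 with library totals. It was -0.22 for counts summing to 100 or more and -0.12 for 1000 or more. For members not shown to overlap their sense gene it was -0.34, and where no shared exon bases were found -0.26. It ranged from -0.20 to -0.17 when libraries were left out. Library totals and upper-quartile scaling moved the median of all genes to -0.08 and -0.07.

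Sense genes called higher numbered 20 with library totals, 23 with upper-quartile scaling and 14 on each log2(FPKM) scale. Those called lower numbered 41 with library totals. On log2(FPKM + 0.1) 5 ratios were higher and 30 lower, and among 19 pairs without overlap 0 and 7 (211 pairs in the main test). Leaving out libraries gave 9 to 14 higher and 41 to 51 lower ratios. The cause of these shifts was not tested.

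ST3GAL3-AS1 turned to -0.03 with library totals and -0.02 with upper-quartile scaling and both FPKM scales, and TMPO-AS1 to values of 0.00 to 0.03 without single libraries. Neither was called in any of these.

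Samples of the same number deviated together only weakly (correlations 0.0861, 0.117 and 0.0365), yet each of the 6 samples correlated best with its own number. The main fit is unpaired because the labels name no shared culture or day. These values do not settle whether the numbers stand for pairs. With the replicate block 22 members were higher and 78 lower, and 52 sense genes higher and 38 lower. Calls over all genes grew as well, to 3150 higher and 2948 lower, against 2216 and 2313 in the main test. The smallest change called among the members was 0.23 on the log2 scale. The part of depth in which members were called was not tested.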

Other observations

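Promoter windows of the 180 matched members had a median GC content of 64.7%, against 58.3% for all 27305 RefSeq windows. The windows of the 58 members called lower had a median of 66.3% and those of the 13 called higher 60.7%. The sterol regulatory element TCACNCCAC, searched on both strands, was in 1 member window (0.556%) and in 1.15% of all windows, and in none of the 13 windows of members called higher, RUSC1-AS1 among them. The inverted CCAAT box ATTGG was in 63 member windows (35.0%) and in 35.7% of all windows. It was in 7 of the 13 windows of members called higher and in 18 of the 58 of members called lower. The E-box CACGTG was in 15 member windows (8.33%) and in 7.43% of all windows. These shares are descriptions of the letters, with no test.

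Divergent transcripts, the lncRNA genes with symbols ending in DT, had 1 higher and 64 lower calls among 225 tested, against 17 and 73 among the 230 antisense members. Their median summed count was 219, against 859 for the antisense members, so the shares of calls are not at equal depth.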
